A study of Mus musculus with 36 samples.

Results

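The genes described here encode the subunits and assembly factors of the proteasome in C2C12 myotubes. They were chosen by name, as protein-coding genes called *Psma* to *Psmg* followed by a number, with at least 1 CPM (the count scaled to a fixed library total) in at least 12 of the 36 libraries. Of 51 names that matched, 47 passed, out of 13995 genes in the series that passed the same filter, and all 47 reached 1 CPM in all 36 libraries. By role they comprise 7 subunits of the 20S alpha ring, 7 of the 20S beta ring, 1 inducible catalytic subunit (*Psmb10*), 9 subunits of the 19S base, 8 of the 19S lid, 6 regulators that bind the 20S ends or inhibit it, 7 assembly chaperones and 2 genes that carry a *Psm* name without being a part of the particle. C2C12 is a mouse myoblast line that fuses into multinucleate myotubes in differentiation medium. All myotubes received an antisense locked nucleic acid (LNA) on day 3 of differentiation, either the negative control LNA (control) or the LNA against the long non-coding RNA *Tug1* (*Tug1* KD), and were studied on day 4. They were left with unconnected electrodes (Rest), or underwent electrical pulse stimulation (EPS) for 3 h at 13 V and 66 Hz in 2 ms pulses, 5 s on and 5 s off. Stimulated myotubes were harvested as EPS ended (EPS 0h) or when they had rested for a further 3 h (EPS 3h), which gave 6 groups of 6 libraries. The same Rest group serves both times. In comparisons of EPS 3h, EPS and a difference in time in culture therefore cannot be told apart. The wells stem from a single cell line and 2 independent experiments, so the 6 libraries of a group measure the spread between wells and experiments and not between animals. In RNA from whole wells, fewer cells of a type and less RNA per cell cannot be told apart.

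The proteasome degrades proteins that carry ubiquitin chains, and in muscle it breaks down myofibrillar and damaged proteins. Its barrel-shaped 20S core has outer alpha rings, which form the gate, and inner beta rings, which hold the cutting sites. A 19S cap, made of a base with ATPases and a lid, recognises ubiquitin, removes it and threads the protein into the core, and the whole is the 26S proteasome. Under interferon the cutting subunits are replaced by inducible counterparts that make up the immunoproteasome. Transcription of most subunit genes is raised together by the factor NFE2L1 when proteasome capacity falls short.

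Each library held between 17005079 and 24181167 counts on genes. *Tug1* differed between *Tug1* KD and control by a log2 fold change (log2FC) of -0.83 at Rest (FDR = 9.15e-04), -0.57 at EPS 0h (FDR = 0.0178) and -0.51 at EPS 3h (FDR = 0.0414), where FDR is the adjusted p value of edgeR over all 13995 genes. All 8 myotube markers passed the filter, with *Myh3* at 3026 to 5787 RPM (CPM scaled by TMM factors). The summed level of 6 markers of cells other than muscle lay between 1.77 and 15.2 RPM in all libraries, and the leukocyte marker *Ptprc* had a median of 0.0718 RPM. Replicates 1 to 3 and replicates 4 to 6 differed in the level of the members in some groups. They were treated as 2 sets, the first and the second, although the labels do not tell which experiment a replicate came from, and values for each set are given where they differ most.

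At Rest the constitutive subunits were among the abundant transcripts of these myotubes. In RPM per kilobase of exon (RPKM), the unit used here to compare genes, the 31 constitutive 20S and 19S subunits had a median of 40.0 in control myotubes, at the 94.2nd percentile of the genes tested. The levels were not equal within the core or within the cap, although each of these holds its own subunits in equal copies. The highest was *Psmc3*, an ATPase of the base, at 179 ± 21.7 RPKM (SD, n = 6), and the lowest *Psmb2*, a beta ring subunit without a cutting site, at 8.43 ± 0.410 RPKM, a ratio of 21.3. Neighbours in this order mostly had overlapping libraries. *Psmd8* of the lid and *Psmd2*, a large scaffold of the base, stood at 103.7 ± 16.9 and 103.5 ± 7.79 RPKM. The assembly chaperones, which bind subunits only while the particle is built, had a median of 5.24 RPKM, and the highest of them, *Psmd10*, reached 12.9 ± 0.736 RPKM. The 6 regulators had a median of 13.0 RPKM. *Psme2b* is a near copy of *Psme2*, so the split of reads between these genes is uncertain. Exon lengths came from a GENCODE annotation and may differ from the transcripts that these cells use. They covered all annotated exons of a gene, 9386 bases for *Psmb2* and 3155 for *Psmc3*. The ratio of 21.3 and the order of the genes depend on these lengths. In RPM, Rest control libraries ranged over 72.6 to 83.5 for *Psmb2* and 488 to 669 for *Psmc3*. By RPM *Psmb5* lay below *Psmb2*, at 18.2 to 57.8.

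**Figure D1:**
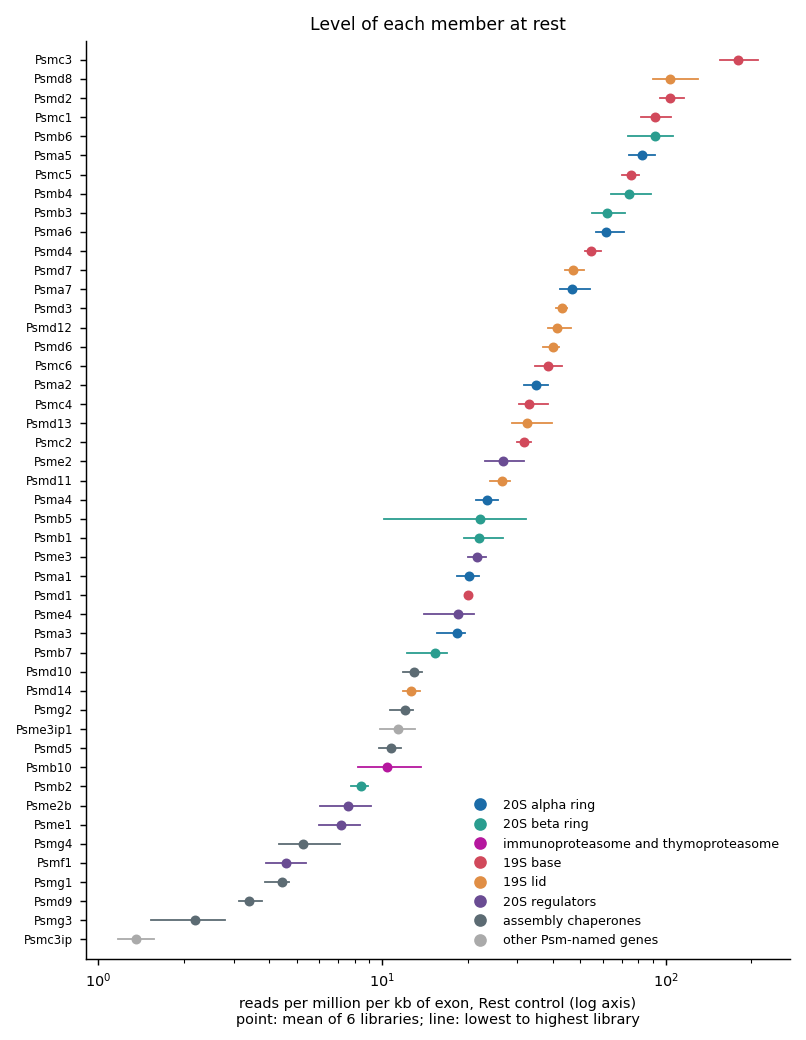
Level of each of the 47 members in Rest control myotubes in RPKM on a log axis, coloured by class, where the point is the mean of 6 libraries and the line runs from the lowest to the highest library. Most 20S and 19S subunits lie to the right of the assembly chaperones, whose highest mean is 12.9 RPKM.

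Of the cutting subunits, *Psmb6* (caspase-like activity) stood at 91.4 ± 11.3 RPKM, *Psmb5* (chymotrypsin-like) at 22.2 ± 7.61 RPKM and *Psmb7* (trypsin-like) at 15.3 ± 1.65 RPKM at Rest. In RPM, which is not divided by exon length, *Psmb7* stood above *Psmb5*. Rest control libraries ranged over 74.0 to 102 RPM for *Psmb7* and 18.2 to 57.8 RPM for *Psmb5*, whose exon lengths were 6025 and 1794 bases. The inducible counterparts of the cutting subunits were scarce. *Psmb8*, which replaces *Psmb5*, had at most 11 counts in any of the 36 libraries, *Psmb9*, which replaces *Psmb6*, at most 7, and the thymus subunit *Psmb11* at most 9. *Psma8*, an alpha subunit of male germ cells, had at most 5. These 4 names were under 1 CPM in every library and no differences were tested in them. *Psmb10*, the counterpart of *Psmb7*, was the sole immunoproteasome subunit past the filter. It ranged in Rest control libraries over 14.3 to 23.7 RPM (median 17.2), in EPS 0h control over 12.6 to 19.8 RPM (median 14.3) and in EPS 3h control over 12.3 to 19.6 RPM (median 15.2). The groups overlapped, and neither change passed the test, with a log2FC of -0.26 (FDR = 0.147) at EPS 0h and -0.23 (FDR = 0.172) at EPS 3h. The lowest member past the filter was *Psmc3ip*, at 3.96 ± 0.503 RPM (SD, n = 6), so no member stood close to the limit.

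The first comparison asked how the proteasome genes stood at the end of the EPS bout in control myotubes. Few of them differed from Rest in the fit to all libraries, and the replicate sets were unlike. None of 47 was higher and 4 were lower than at Rest, while 20.5% of all genes tested were higher and 18.4% lower. DESeq2 and limma-voom also called 0 higher, and 1 member was higher at an unadjusted p under 0.05. The median log2FC of the members was -0.03, the same to 2 decimals as that of all genes tested. In the first set alone 19 of the 31 constitutive subunits were above 0, with a median of 0.08. That fit called 14 members, 8 of them higher, against 20.8% of all genes higher and 20.1% lower. In the second set 7 of the 31 were above 0, with a median of -0.06. That fit called 1 member, against 16.1% and 13.7% of all genes. The 4 lower members belong to 4 classes. *Psmc1*, an ATPase of the base, ranged over 267 to 340.3 RPM (median 301) at Rest and 197 to 271 RPM (median 233) at EPS 0h. The groups overlapped slightly, and the log2FC was -0.35 (SE 0.130, FDR = 0.0307). *Psme2*, a subunit of the PA28 cap that opens the gate without ATP, ranged over 54.7 to 74.9 RPM (median 61.3) and 38.7 to 59.6 RPM (median 48.4), with a log2FC of -0.36 (FDR = 0.0388). *Psmd11* of the lid had a log2FC of -0.21 (FDR = 0.0259). *Psmd5*, a chaperone that binds base ATPases before the cap is complete, had -0.22 (FDR = 0.0263). The fall of *Psmc1* was -0.64 in the first set and -0.07 in the second set. None of the 4 kept its call under all 15 alternative settings, and the fewest settings that any of them passed was 8. The highest estimates of the classes were those of *Psmd14* with 0.24 (FDR = 0.0941), *Psmc6* with 0.20 (FDR = 0.297), *Psme4* with 0.20 (FDR = 0.255), *Psma3* with 0.19 (FDR = 0.322), *Psmb1* with 0.17 (FDR = 0.268) and *Psmg2* with 0.09 (FDR = 0.506). The lowest were *Psme2b* at -0.42 (FDR = 0.128), *Psmb5* at -0.30 (FDR = 0.334) and *Psma5* at -0.08 (FDR = 0.554) in the classes not yet given. Scaling by library size alone, under which the median of all genes was -0.10, called 8 members lower and 0 higher. It called 24.9% of all genes lower and 16.6% higher. With a term for the replicate number, 1 member was called higher and 5 lower, against 24.4% and 25.5% of all genes. The summed level of 5 markers of undifferentiated or dividing myoblasts, all past the filter, in control libraries at Rest was 114 to 155 RPM, at EPS 0h 153 to 191 RPM and at EPS 3h 106 to 161 RPM, and its part in the results was not tested. It was 107 to 135 RPM at Rest and 139.9 to 184 RPM at EPS 0h in *Tug1* KD libraries.

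When 3 h had passed since EPS, 13 of the 31 constitutive subunits were higher than at Rest in control myotubes and 18 did not pass the test. Of 47 members 14 were higher and 1 lower, against 26.1% and 25.9% of all genes tested, and 13 of the 14 were constitutive 20S or 19S subunits. None of the 31 was lower, and 14 had an unadjusted p under 0.05. Their median log2FC was 0.20 (0.41 in the first set and 0.00 in the second), that of all members 0.12 and that of all genes tested -0.02. The changes were small, since the largest, that of *Psmd1*, was 1.41-fold. The share of members called higher was thus close to that of all genes tested. In 6 members all EPS 3h libraries lay above all Rest libraries and in 1 all lay below, against 15.2% and 13.8% of all genes tested. A single member was lower, and whether that share differs from the background was not tested. In control libraries the summed level of the 6 markers of other cells was 3.76 to 6.62 RPM at Rest and 7.20 to 11.9 RPM at EPS 3h, with 3 of the 6 past the filter. The epithelial marker *Epcam* went from 0 to 0.0470 RPM to 2.29 to 5.07 RPM, the endothelial marker *Pecam1* from 0.209 to 0.644 RPM (median 0.355) to 1.31 to 2.75 RPM (median 1.80) and the macrophage marker *Cd68* from 2.86 to 5.44 RPM (median 3.65) to 1.89 to 3.00 RPM (median 2.34). Their part in the result was not tested.

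The size of these changes depends on the scaling. When libraries were scaled by library size alone, the median of all genes was -0.19 and that of the members -0.05. Of the members 3 were higher and 10 lower, against 19.1% and 39.5% of all genes. Without the filter on low counts the median of all genes was -0.11, and 6 members were higher and 2 lower (20.4% and 27.8% of all genes). Relative to the median of all genes, the median of the members was higher by 0.14 under all 3 settings. A term for the replicate number gave 17 higher and 3 lower, against 29.6% and 31.6% of all genes.

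In the 19S base *Psmd1*, the scaffold that ties ubiquitin receptors to the ATPase ring, had the largest change of all members. Its libraries ranged over 211 to 218 RPM (median 216) at Rest, 207 to 281 RPM (median 238) at EPS 0h and 259 to 339.8 RPM (median 312) at EPS 3h. All 6 EPS 3h libraries were above all 6 at Rest. The log2FC was 0.50 (SE 0.0840, FDR = 5.70e-06), 0.64 in the first set and 0.36 in the second set. The ATPases *Psmc6* and *Psmc2* were also higher, with log2FC values of 0.36 (FDR = 0.0390) and 0.30 (FDR = 0.00375), and the other 6 base subunits did not pass the test. By set, *Psmc6* had 0.56 and 0.15, and *Psmc2* 0.41 and 0.20. The lowest estimate of the base, that of the ATPase *Psmc1*, was -0.13 (FDR = 0.399).

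In the lid *Psmd14*, the enzyme that cuts ubiquitin chains off the substrate, ranged over 106 to 122 RPM (median 114) at Rest and 127 to 212 RPM (median 151) at EPS 3h. The groups did not overlap, and the log2FC was 0.49 (SE 0.113, FDR = 4.18e-04). The rise was larger in the first set, from 106 to 122 RPM to 152 to 212 RPM. In the second set *Psmd14* went from 107 to 119 RPM to 127 to 149 RPM. *Psmd7*, which pairs with *Psmd14* in the lid, had 0.25 (FDR = 0.0211), and the scaffold subunits *Psmd12* and *Psmd6* had 0.37 (FDR = 0.00108) and 0.37 (FDR = 0.00165). The lowest estimate of the lid was that of *Psmd3*, -0.01 (FDR = 0.919). *Psmd1* and *Psmd14* kept their call under all 15 alternative settings, those of scaling included, and were the only called members of this comparison to do so.

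In the alpha ring 4 of 7 subunits were higher and the estimates of all 7 were above 0, from 0.12 (*Psma4*) to 0.43 (*Psma6*). *Psma6* ranged over 126 to 159 RPM (median 131) at Rest, 130.1 to 151 RPM (median 146) at EPS 0h and 163 to 221 RPM (median 177) at EPS 3h. All EPS 3h libraries lay above all Rest and all EPS 0h libraries, and the log2FC against Rest was 0.43 (SE 0.0887, FDR = 1.11e-04). *Psma1*, which also had no overlap, had a log2FC of 0.40 (FDR = 0.00546), *Psma7* of 0.32 (FDR = 0.00373) and *Psma2* of 0.32 (FDR = 0.0120). The value of *Psma2* came from the first set, with 0.58 against 0.03 in the second, and those of *Psma6* were 0.66 and 0.20. Under library size scaling *Psma1*, *Psma2* and *Psma7* no longer passed, while *Psma6* did.

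The beta ring was divided. *Psmb7* had a log2FC of 0.29 (FDR = 0.0419) and *Psmb2* of 0.25 (FDR = 0.0460), and the estimates of 3 of the 7 subunits were below 0. By set, *Psmb7* had 0.47 and 0.09 and *Psmb2* 0.47 and 0.00, and neither passed in the second set. Among those below 0 were the other cutting subunits, *Psmb6* at -0.07 (FDR = 0.678) and *Psmb5* at -0.26 (FDR = 0.365). *Psmb5* ranged over 18.2 to 57.8 RPM (median 39.3) at Rest and 17.9 to 48.3 RPM (median 35.7) at EPS 3h, a spread within each group that was larger than the difference between them. The difference between *Psmb5* or *Psmb6* and *Psmb7* was not tested.

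**Figure D2:**
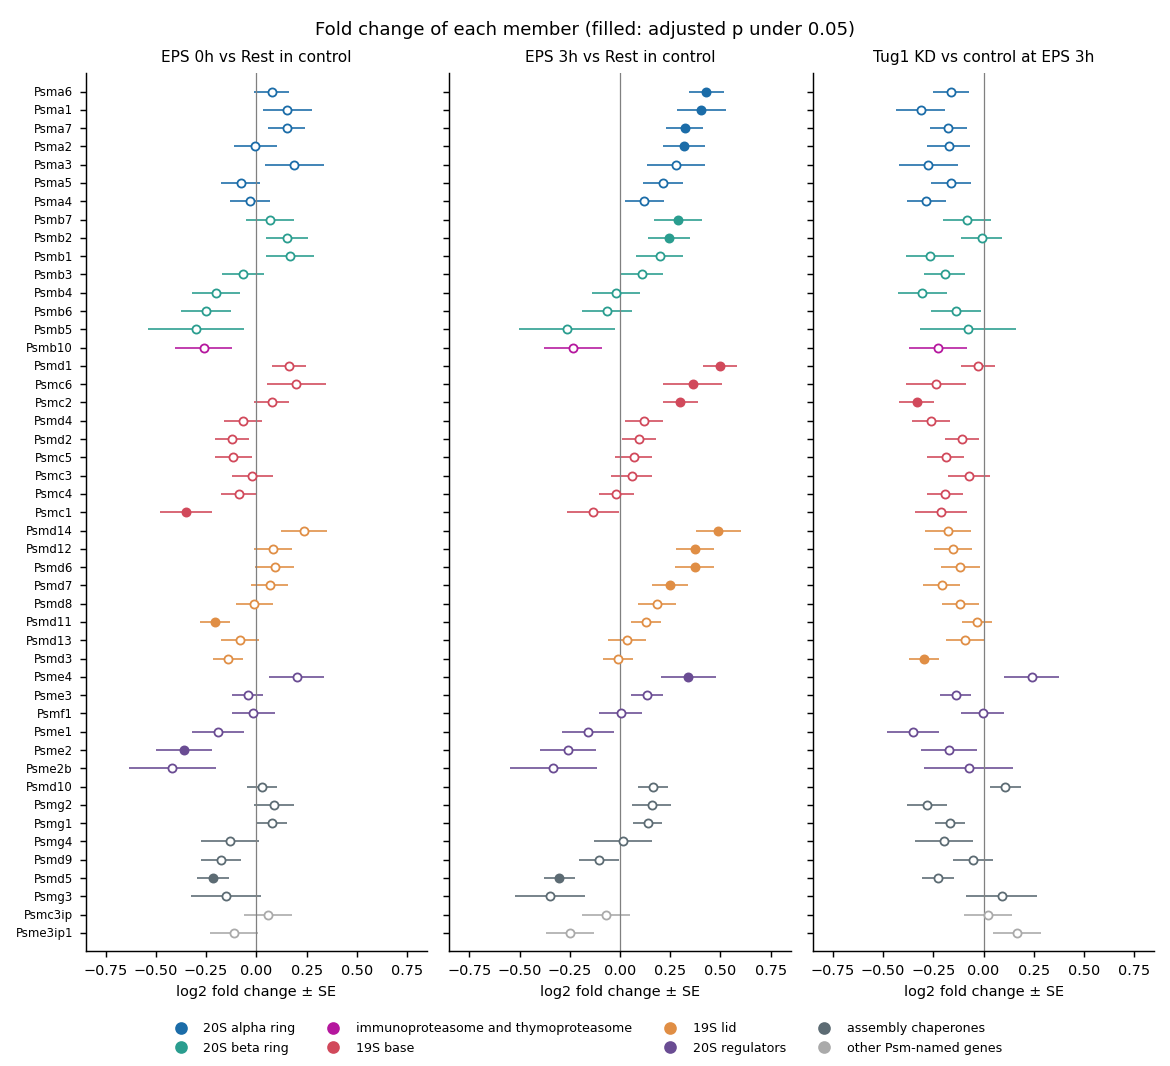
Log2FC (± SE) of the 47 members at EPS 0h and EPS 3h against Rest in control myotubes, and in *Tug1* KD against control myotubes at EPS 3h, with members grouped by class and ordered by the middle panel. Filled points have an FDR under 0.05, and at EPS 3h all 7 alpha ring subunits lie to the right of 0 while in the last panel all 31 constitutive subunits lie to its left.

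Of the regulators, *Psme4* was higher at EPS 3h. It encodes PA200, a cap that serves ubiquitin-independent degradation. Its libraries ranged over 124 to 185 RPM (median 169.7) at Rest and 167 to 256 RPM (median 196) at EPS 3h, with overlap, and its log2FC was 0.34 (SE 0.137, FDR = 0.0364). It lost this call under 7 of the 15 alternative settings. The PA28 genes *Psme1* and *Psme2* had -0.16 (FDR = 0.308) and -0.26 (FDR = 0.119), *Psme2b* had -0.33 (FDR = 0.204), and the inhibitor gene *Psmf1* had 0.00 (FDR = 0.980).

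The single member that was lower at EPS 3h was the assembly chaperone *Psmd5*. It ranged over 102 to 122 RPM (median 113) at Rest, 86.3 to 114 RPM (median 96.2) at EPS 0h and 81.5 to 102 RPM (median 92.6) at EPS 3h. Every EPS 3h library lay below every Rest library, and the log2FC was -0.30 (SE 0.0780, FDR = 0.00145). It was -0.12 in the first set and -0.47 in the second set. The other base chaperones *Psmd9* and *Psmd10* had -0.10 (FDR = 0.384) and 0.17 (FDR = 0.0614). Of the *Psmg* genes, whose products guide the assembly of the 20S core, *Psmg3* had the lowest estimate, -0.35 (FDR = 0.0927), at levels of only 4.84 to 8.84 RPM (median 6.74) at Rest. *Psmc3ip*, a factor of meiotic recombination, and *Psme3ip1*, which binds the nuclear PA28 protein, are no parts of the particle. They had -0.07 (FDR = 0.657) and -0.25 (FDR = 0.0802).

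From the end of EPS to 3 h later, the estimates of all 31 constitutive subunits in control myotubes were above 0. The EPS 0h and EPS 3h comparisons with Rest share the Rest libraries, and this one shares its libraries with both. Of 47 members 7 were higher and 0 lower, against 9.67% and 6.88% of all genes tested. DESeq2 called 9 higher and limma-voom 7, both called 0 lower, and none was lower at an unadjusted p under 0.05. The median of the 31 subunits was 0.18 and that of all genes -0.01. In the first set alone 31 of 31 were above 0 with a median of 0.31, and in the second 22 with a median of 0.09. The lid subunit *Psmd11* went from 157 to 178 RPM (median 164) to 187 to 240.0 RPM (median 206) without overlap, a log2FC of 0.34 (SE 0.0748, FDR = 0.00120). At Rest it had stood at 174 to 204 RPM (median 196), so its level was lowest at EPS 0h. *Psma6* had 0.35 (FDR = 0.00403) and *Psmd1* 0.34 (FDR = 0.00380). Under library size scaling 25 of the 31 estimates were above 0 and 3 members were higher, against 7.37% of all genes.

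**Figure D3:**
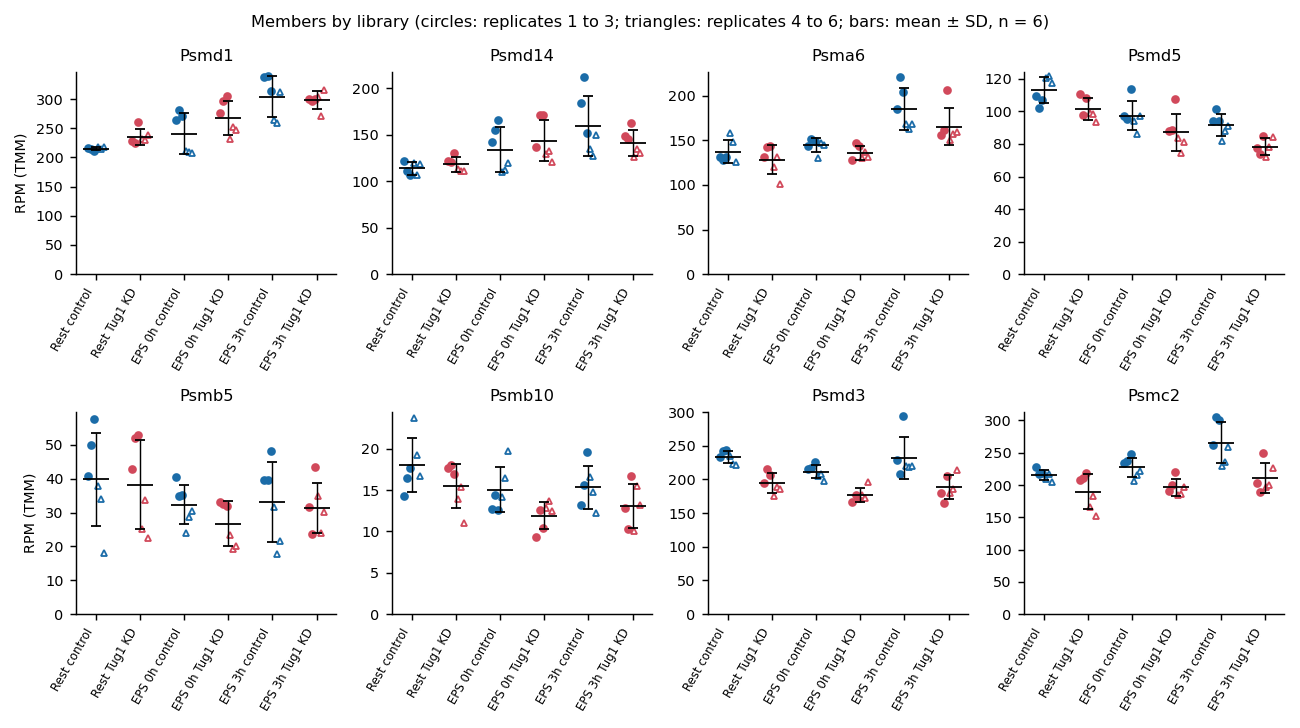
RPM of 8 members in each library of the 6 groups, where circles are replicates 1 to 3, triangles replicates 4 to 6 and bars the mean ± SD (n = 6). *Psmd1* lies between 211 and 218 RPM in Rest control and between 259 and 339.8 RPM in EPS 3h control, *Psmd5* steps down, and the *Tug1* KD libraries of *Psmd3* lie below the controls at Rest and EPS 0h.

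The rise at EPS 3h was not of equal size in the replicate sets. Summed over the 31 constitutive subunits, the first set had 6319 ± 43.9 RPM at Rest and 7817 ± 647 RPM at EPS 3h, and the second set had 6506 ± 516 RPM and 6638 ± 119 RPM (SD, n = 3 each). In the first set alone, 29 of the 31 estimates were above 0 with a median of 0.41. In the second set alone, 16 were above 0 and the median was 0.00. The fit to the first set called 20 members higher and 0 lower, against 25.3% and 23.6% of all genes. That to the second set called 6 higher and 4 lower, against 25.1% and 23.6%. *Psmd1*, *Psmd14*, *Psmd12*, *Psmd6* and *Psma1* were called higher in both. Depth also differed between the sets, with median counts on genes of 18478194 in the first set and 21106357 in the second set, and its part in this was not tested.

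**Figure D4:**
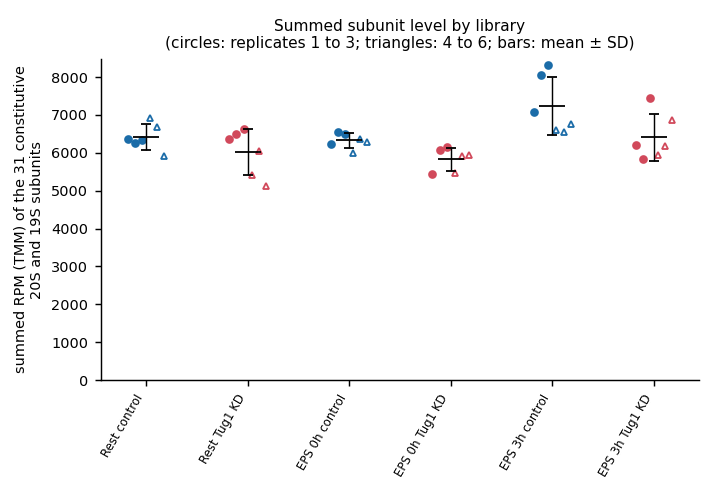
Summed RPM of the 31 constitutive 20S and 19S subunits in each library, with circles for replicates 1 to 3, triangles for replicates 4 to 6 and bars for the mean ± SD (n = 6). The highest libraries are circles of EPS 3h control, up to 8320 RPM, and the lowest is a triangle of Rest *Tug1* KD at 5126 RPM.

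The next question was whether *Tug1* KD changed these genes within each state. Few members passed the test, and most estimates were below 0. At Rest the summed markers of other cells were 3.76 to 6.62 RPM in control and 1.77 to 2.91 RPM in *Tug1* KD libraries, without overlap, and their part in the results was not tested. At Rest 1 member was higher and 2 were lower, against 5.54% and 4.47% of all genes tested. At EPS 0h 2 were higher and 2 lower, against 8.25% and 6.07%, and at EPS 3h 0 were higher and 2 lower, against 6.38% and 5.11%. At EPS 3h DESeq2 called 0 higher and 5 lower and limma-voom 0 and 2, and at an unadjusted p under 0.05 there were 0 higher and 14 lower. The estimates were below 0 for 35 of 47 members at Rest, for 35 at EPS 0h and for 42 at EPS 3h. At EPS 3h these included all 31 constitutive subunits, with a median of -0.18 against -0.01 for all genes tested. In the first set alone 31 of 31 were below 0 with a median of -0.28, and in the second 24 with a median of -0.05. The median of all members was -0.17, and -0.10 without replicate 2. A term for the replicate number was also fitted, although the labels do not pair wells by it. The calls were then 2 higher and 5 lower at EPS 0h, against 13.1% and 11.2% of all genes. At EPS 3h they were 0 higher and 11 lower, against 10.8% and 9.75%. Under library size scaling they were 1 and 7 at EPS 0h, against 7.05% and 7.99%.

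*Psmd3*, a scaffold subunit of the lid, was lower in *Tug1* KD myotubes in all 3 states. At Rest control libraries ranged over 222 to 243 RPM (median 234) and *Tug1* KD libraries over 175 to 216 RPM (median 191). At EPS 0h the ranges were 198 to 226 RPM (median 211) and 167 to 196 RPM (median 175), and at EPS 3h 208 to 294 RPM (median 220.1) and 166 to 213 RPM (median 183). The groups did not overlap at Rest or EPS 0h and overlapped at EPS 3h. The log2FC was -0.26 (SE 0.0749, FDR = 0.0180) at Rest, -0.26 (SE 0.0750, FDR = 0.0164) at EPS 0h and -0.30 (SE 0.0750, FDR = 0.00633) at EPS 3h. It was below 0 in both replicate sets in each state, from -0.41 to -0.16, and the call held in 9 of the 15 alternatives at Rest, 9 of the 15 at EPS 0h and 12 of the 15 at EPS 3h.

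*Psmc2*, a base ATPase, was lower at EPS 3h, where control libraries ranged over 230.1 to 306 RPM (median 260.3) and *Tug1* KD libraries over 189 to 249 RPM (median 202). The log2FC was -0.33 (SE 0.0863, FDR = 0.00820). The beta subunit *Psmb4* was lower at EPS 0h with -0.38 (FDR = 0.0262), and had -0.31 (FDR = 0.0972) at Rest and -0.30 (FDR = 0.10) at EPS 3h. *Psmg1*, a chaperone of alpha ring assembly, was lower at Rest with -0.25 (FDR = 0.0237), -0.10 in the first set and -0.40 in the second. Of the members that did not pass, *Psme1* had the lowest estimates among the regulators, -0.26 (FDR = 0.253) at Rest, -0.34 (FDR = 0.0763) at EPS 0h and -0.35 (FDR = 0.0779) at EPS 3h. *Psmb10* had -0.22 (FDR = 0.414), -0.33 (FDR = 0.122) and -0.23 (FDR = 0.370). In the alpha ring the estimates at EPS 3h ran from -0.31 for *Psma1* to -0.16 for *Psma6*, and in the beta ring from -0.30 for *Psmb4* to -0.01 for *Psmb2*. Their extremes at Rest were *Psma3* at -0.19, *Psma2* at -0.03 and *Psmb2* at 0.15, and at EPS 0h *Psma7* at -0.22, *Psma5* at 0.02 and *Psmb2* at 0.05. In the base *Psmd4*, a ubiquitin receptor, had the lowest estimate at Rest, -0.22, and *Psmc1* at EPS 0h, -0.25, while *Psmd1* had the highest in all 3 states, 0.13, 0.15 and -0.03. The highest of the lid were *Psmd6* at Rest, 0.06, *Psmd14* at EPS 0h, 0.10, and *Psmd11* at EPS 3h, -0.03. Of the chaperones *Psmg4* was lowest at EPS 0h, -0.25, and *Psmg2* at EPS 3h, -0.28. *Psmc3ip* and *Psme3ip1* had 0.17 and 0.25 at Rest, and neither passed in any state.

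The higher members were *Psmd10* and *Psme4*. *Psmd10*, which encodes the base chaperone gankyrin, ranged over 35.8 to 41.9 RPM (median 39.0) in control and 40.3 to 54.1 RPM (median 46.1) in *Tug1* KD myotubes at Rest, a log2FC of 0.25 (SE 0.0747, FDR = 0.0238), 0.40 in the first set and 0.09 in the second. At EPS 0h it had 0.22 (FDR = 0.0435) without overlap of the libraries, and at EPS 3h 0.11 (FDR = 0.411). *Psme4* had 0.43 (FDR = 0.0290) at EPS 0h, with estimates of 0.27 (FDR = 0.252) at Rest and 0.24 (FDR = 0.303) at EPS 3h. Neither gene kept its call under every alternative: *Psmd10* kept it at Rest in 8 of the 15 and at EPS 0h in 5 of the 15, and *Psme4* at EPS 0h in 9 of the 15.

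At Rest the sets of replicates differed in sign. In the first set the median log2FC of the 31 constitutive subunits under *Tug1* KD was 0.05 with 18 above 0, and in the second set it was -0.25 with 28 below 0. The fit to the second set alone called 1 member higher and 14 lower, against 9.22% and 6.9% of all genes. That to the first set called 2 higher and 0 lower, against 3.29% and 2.9%. Within Rest *Tug1* KD myotubes, all 31 subunits had higher means in the first set than in the second set, by a median of 0.27, while the median over all genes was -0.02. Within Rest control myotubes the median of the 31 was -0.03, with 14 higher in the first set.

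**Figure D5:**
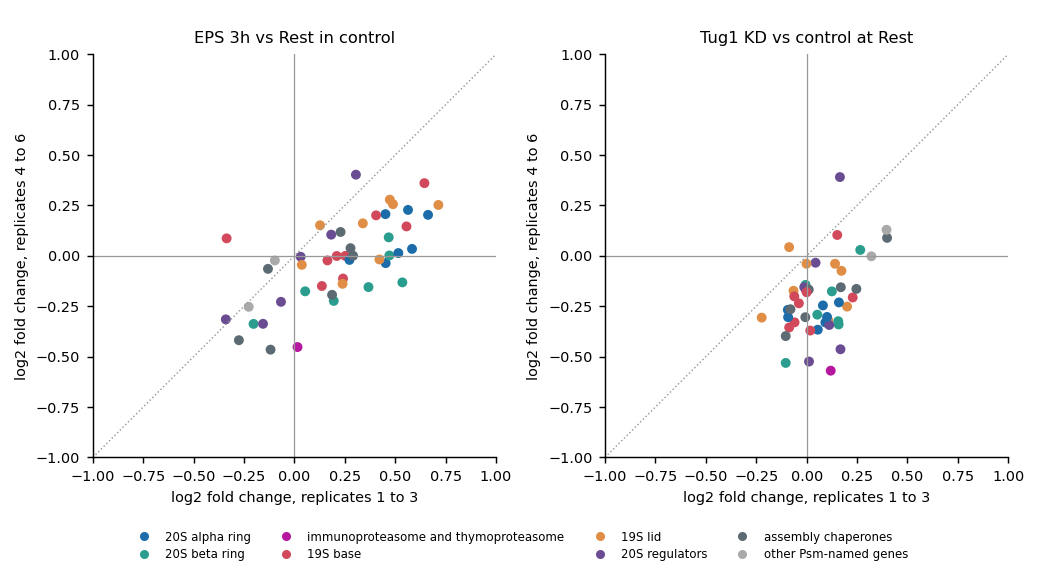
Log2FC of the 47 members in a fit to replicates 1 to 3 alone against that in a fit to replicates 4 to 6 alone, for EPS 3h against Rest in control myotubes and for *Tug1* KD against control at Rest, coloured by class, with the dotted line at equal values. On the left most points lie below the line and 37 lie to the right of 0, and on the right 41 points lie below 0 on the vertical axis and 17 lie to the left of 0 on the horizontal axis.

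In *Tug1* KD myotubes at EPS 0h 3 members were higher and 6 lower than at Rest, against 24.4% and 21.2% of all genes tested. At EPS 3h 5 were higher and 2 lower, against 26.2% and 25.9%. At EPS 0h the higher members were *Psmd14*, *Psme4* and *Psmg1*, and the lower ones *Psmc1*, *Psme2*, *Psmb10*, *Psmb6*, *Psmd9* and *Psmd5*. The largest was *Psmc1*, from 231 to 324 RPM (median 277) to 158 to 235 RPM (median 196), a log2FC of -0.48 (SE 0.130, FDR = 0.00305), which was -0.88 in the first set and -0.07 in the second set. *Psmb10* fell from 15.5 ± 2.68 RPM to 11.9 ± 1.66 RPM (SD, n = 6), with a log2FC of -0.38 (FDR = 0.0325), which was -0.69 in the first set and -0.04 in the second. *Psme2*, *Psmb6* and *Psmd9* had -0.84, -0.62 and -0.53 in the first set, against -0.06, -0.03 and -0.01 in the second. With a term for the replicate number the calls at EPS 0h were 6 higher and 13 lower, against 27.9% and 29% of all genes. Under library size scaling they were 0 and 17, against 20.3% and 29.7%.

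At EPS 3h in *Tug1* KD myotubes *Psma6*, *Psmd1*, *Psma7*, *Psmd12* and *Psmg1* were higher, and *Psmd5* and *Psme3ip1* lower. The sets differed here too. In the first set alone 22 of 47 members were above 0 with a median of -0.02, and in the second 42 with a median of 0.13. Of the 31 constitutive subunits 18 were above 0 in the first set and 31 in the second. *Psmd1* went from 224 to 260.4 RPM (median 230.0) to 271 to 316 RPM (median 300.4) without overlap, a log2FC of 0.34 (SE 0.0839, FDR = 8.23e-04). *Psmd5* went from 93.3 to 111 RPM (median 99.0) to 71.7 to 85.0 RPM (median 77.8), also without overlap, and its log2FC of -0.37 (SE 0.0782, FDR = 1.40e-04) kept its call under all 15 alternatives. Library size scaling gave 1 higher and 12 lower, against 20% and 40.5% of all genes, with a median of -0.20 over all genes. From EPS 0h to EPS 3h 3 members were higher and 0 lower, against 8.59% and 7.13%, with 0 lower by DESeq2, by limma-voom or at an unadjusted p under 0.05. They were *Psmd11*, *Psmd8* and *Psma6*, and library size scaling left 1 higher and 1 lower (7.31% and 12.4% of all genes).

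A difference between control and *Tug1* KD myotubes in the response to EPS was tested by the interaction term of edgeR. It called 0 members at EPS 0h, where it called 0% of all genes tested, and 0 at EPS 3h, where it called 0.00715% higher and 0% lower. DESeq2 and limma-voom also called 0 members, and none had an unadjusted p under 0.05 at either time. At EPS 3h the estimates ran from -0.23 (SE 0.159) for *Psmd14* to 0.08 (SE 0.105) for *Psmg1*, and 43 of 47 were below 0. With standard errors of this size, a difference as large as the rise of most subunits could go undetected. The median of the members was -0.31 in the first set alone, with 45 below 0, and 0.17 in the second set alone, with 40 above 0. The pooled median of -0.07 thus joined sets of opposite sign, and the control and *Tug1* KD sides of each set hold 3 libraries a group.

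Genes that work with the proteasome were taken from lists by function. Their counts at EPS 3h are those of edgeR in control myotubes, where 26.1% of all genes tested were higher and 25.9% lower (19.1% and 39.5% under library size scaling). None of the 3 tested parts of the particle that lack a *Psm* name passed, by edgeR, DESeq2 or limma-voom or at an unadjusted p under 0.05. *Pomp*, the maturation factor of the core, had 0.16 (FDR = 0.196) at EPS 3h with 0.30 (FDR = 0.0356) in the first set and 0.02 in the second, the ubiquitin receptor gene *Adrm1* 0.14 (FDR = 0.290) and the lid gene *Sem1* 0.02 (FDR = 0.945). Of 8 proteasome-associated proteins 5 were higher and 0 lower at EPS 3h (26.1% and 25.9% of all genes), with 0 lower at an unadjusted p under 0.05 or by the other tools, and library size scaling gave 4 higher and 1 lower. The largest was *Zfand2a*, which encodes a stress-induced partner of the 19S cap and rose from 208 to 275 RPM (median 224) to 535 to 718 RPM (median 626), a log2FC of 1.44 (SE 0.130, FDR = 1.68e-11). *Akirin2*, needed for import of proteasomes into the nucleus, had 0.38 (FDR = 2.00e-05). The ubiquitin ligase *Ube3c* had the lowest estimate, -0.04 (FDR = 0.694), and was higher in *Tug1* KD than in control myotubes, with 0.31 (FDR = 0.00385) at Rest, 0.28 (FDR = 0.00759) at EPS 0h and 0.28 (FDR = 0.0109) at EPS 3h.

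Of the genes for ubiquitin and its activating enzymes, the polyubiquitin gene *Ubb* ranged over 782 to 968 RPM (median 913) at Rest and 1111 to 1820.0 RPM (median 1176) at EPS 3h, with a log2FC of 0.14 (FDR = 0.338) at EPS 0h and 0.50 (FDR = 4.00e-04) at EPS 3h. The activating enzyme *Uba1* had 0.06 (FDR = 0.683) at EPS 3h.

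Of 11 genes for the unfoldase p97 (*Vcp*), its adaptors and ubiquitin shuttles, 4 were higher and 1 lower at EPS 3h (26.1% and 25.9% of all genes), and 2 higher and 3 lower under library size scaling (19.1% and 39.5%). *Ubqln1*, a shuttle that carries ubiquitylated proteins to the proteasome, rose from 233 to 286 RPM (median 249.8) to 453 to 651 RPM (median 526) at EPS 0h and 774 to 1232 RPM (median 954) at EPS 3h, a log2FC of 1.95 (SE 0.109, FDR = 1.53e-16). Its relative *Ubqln2* fell, with -0.53 (FDR = 7.33e-05). *Vcp* had 0.06 (FDR = 0.50) at EPS 3h. It was higher in *Tug1* KD myotubes in all 3 states without overlap, and at Rest it ranged over 361 to 405 RPM (median 370.3) in control and 552 to 635 RPM (median 599) in *Tug1* KD libraries. Its log2FC was 0.65 (SE 0.0694, FDR = 2.18e-08) at Rest, 0.63 at EPS 0h and 0.50 at EPS 3h.

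Of 8 genes of the NFE2L1 pathway 2 were higher and 2 lower at EPS 3h, close to the shares of all genes (26.1% and 25.9%), and 2 and 4 under library size scaling. *Nfe2l1* itself ranged over 694 to 824 RPM (median 728) at Rest, 465 to 683 RPM (median 529) at EPS 0h and 300.5 to 574 RPM (median 506) at EPS 3h. It was lower without overlap at both times, with a log2FC of -0.41 (FDR = 0.0223) and -0.66 (FDR = 2.42e-04). The latter was -0.91 in the first set and -0.44 in the second set. *Ddi2*, the protease that releases active NFE2L1 from its precursor, was higher at EPS 0h with 0.45 (FDR = 6.39e-04) and had 0.20 (FDR = 0.108) at EPS 3h. The related factor *Nfe2l2* was higher at EPS 0h with 0.25 (FDR = 0.0249) and had -0.17 (FDR = 0.103) at EPS 3h. The small MAF gene *Maff*, a dimer partner of these factors, had the largest rise, 1.24 (FDR = 4.13e-10) at EPS 3h. Protein processing of NFE2L1 does not show in RNA counts.

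Among 8 partners of the immunoproteasome in antigen presentation 5 were lower at EPS 3h and 0 higher (25.9% and 26.1% of all genes), with 0 higher at an unadjusted p under 0.05 or by the other tools, and 6 lower under library size scaling. *Irf1*, an interferon regulatory factor that induces the inducible subunits, ranged over 57.0 to 101 RPM (median 60.6) at Rest, 24.9 to 37.3 RPM (median 34.1) at EPS 0h and 8.66 to 16.7 RPM (median 10.7) at EPS 3h, a log2FC of -2.52 (SE 0.148, FDR = 5.77e-16). The peptide transporter gene *Tap1* ranged over only 2.15 to 3.95 RPM (median 2.73) at Rest and fell, with a log2FC of -1.46 (FDR = 2.28e-08). *B2m*, the light chain of class I molecules, had 0.05 (FDR = 0.729).

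Promoter sequences of RefSeq (mouse build GRCm38.p6, 250 bases before to 50 after a start) were matched to 40 of the 47 members. They were searched on both strands for TGACNNNGC, the element that NFE2L1 and NFE2L2 bind with small MAF partners. It was present in 6 of the 40 members (15.0%), against 14% of 27025 genes, so the share of members was near that of all genes. The members were *Psmb5*, *Psmb6*, *Psmc6*, *Psmd9*, *Psmd12* and *Psme4*. Of these 6, 3 were higher at EPS 3h in control myotubes and 0 lower, and of the 34 members without it 8 were higher and 1 lower, while 26.1% of all genes tested were higher and 25.9% lower. CCAAT was present in 35.0% of the members against 41.1% of all genes, and the heat shock word GAANNTTC in 5.0% against 9.04%. The promoters of the 3 higher members that hold TGACNNNGC and of *Psmd1* and *Psmd14*, the members with the largest rises, which do not hold it, are printed to show where the element lies. Capitals mark TGACNNNGC, which in these genes lies on the opposite strand and so appears as its reverse complement.
Psmd12 (chr11:107479278-107479577, plus strand): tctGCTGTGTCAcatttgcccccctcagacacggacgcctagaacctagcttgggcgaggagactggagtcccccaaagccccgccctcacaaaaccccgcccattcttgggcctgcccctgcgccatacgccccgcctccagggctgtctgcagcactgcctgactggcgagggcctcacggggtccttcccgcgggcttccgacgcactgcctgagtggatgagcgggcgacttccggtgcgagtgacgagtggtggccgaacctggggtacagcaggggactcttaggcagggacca
Psmc6 (chr14:45329574-45329873, plus strand): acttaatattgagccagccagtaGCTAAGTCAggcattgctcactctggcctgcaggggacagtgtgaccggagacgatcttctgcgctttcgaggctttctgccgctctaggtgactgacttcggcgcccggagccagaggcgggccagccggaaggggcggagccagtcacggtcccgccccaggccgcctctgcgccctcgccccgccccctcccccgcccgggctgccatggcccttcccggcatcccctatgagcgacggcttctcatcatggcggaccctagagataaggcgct
Psme4 (chr11:30771525-30771824, plus strand): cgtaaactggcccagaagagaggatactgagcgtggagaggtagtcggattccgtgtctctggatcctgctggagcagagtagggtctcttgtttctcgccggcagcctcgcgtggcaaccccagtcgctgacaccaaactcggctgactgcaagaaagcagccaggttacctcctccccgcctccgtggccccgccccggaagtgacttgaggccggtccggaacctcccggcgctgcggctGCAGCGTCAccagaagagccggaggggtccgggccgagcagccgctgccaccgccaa
Psmd1 (chr1:86064369-86064668, plus strand): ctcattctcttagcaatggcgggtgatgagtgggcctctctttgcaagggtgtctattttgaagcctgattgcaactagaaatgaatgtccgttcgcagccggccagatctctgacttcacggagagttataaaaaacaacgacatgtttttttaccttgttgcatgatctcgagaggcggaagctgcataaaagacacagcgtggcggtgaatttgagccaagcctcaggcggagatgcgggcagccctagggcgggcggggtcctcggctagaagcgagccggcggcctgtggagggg
Psmd14 (chr2:61711444-61711743, plus strand): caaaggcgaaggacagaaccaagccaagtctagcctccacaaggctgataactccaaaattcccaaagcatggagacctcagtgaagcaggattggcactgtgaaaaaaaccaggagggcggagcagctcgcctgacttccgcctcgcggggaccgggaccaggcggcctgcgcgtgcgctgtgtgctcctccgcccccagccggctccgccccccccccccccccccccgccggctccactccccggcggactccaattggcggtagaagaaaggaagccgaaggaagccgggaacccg
The first base of the element lay 247 bases before the start in *Psmd12*, 227 before it in *Psmc6* and 7 before it in *Psme4*. A word in a window does not show that a factor binds there.

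The members also differed in how far they followed one another from library to library. As a description, each member was correlated with the mean of the other constitutive subunits over the 36 libraries after the group means were removed, on the log2 scale, where points share a library and its scaling. Among the alpha ring subunits the median Pearson's r was 0.89, and the highest single values were those of *Psmb7* (0.93) and *Psmc2* (0.92). The beta ring had a median of 0.71, the assembly chaperones of 0.65, the lid of 0.56 and the base of 0.53. The regulators had a median of 0.09, from -0.41 for *Psmf1* to 0.51 for *Psme2*. With the means of the replicate sets removed as well, *Psme4* had the lowest value, -0.65, and *Psmb4* the highest, 0.94. The other regulators then ran from 0.33 for *Psmf1* to 0.90 for *Psme2*, and the alpha ring from 0.12 for *Psma1* to 0.91 for *Psma6*. The low values of most regulators thus depended on whether the set means were kept. In the alpha ring the high values of *Psma2*, *Psma4*, *Psma5* and *Psma6* stayed, at 0.88, 0.90, 0.86 and 0.91. The lower ones moved, *Psma1* from 0.58 to 0.12, *Psma3* from 0.55 to 0.30 and *Psma7* from 0.57 to 0.78.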

How the data were processed

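Poly-A RNA of 36 C2C12 myotube libraries was sequenced by the authors, who prepared stranded libraries. Per the labels, the processing notes name fastp 0.14.1, FastQC 0.11.7, STAR 2.5 and GRCm39. The deposited values are raw counts per gene, and the counting tool is not given in the sources used here. The table of 55416 genes was used as deposited, and the per-library files held identical values in 36 of 36 libraries. Genes without a name (1492) held 0.0327% of the counts. Groups and replicate numbers came from the labels.

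Genes with at least 1 CPM in at least 12 libraries (13995) were scaled by TMM and tested in R 4.3.3 with edgeR 4.0.16 (quasi-likelihood, robust, all 6 groups in one fit). FDR is the Benjamini-Hochberg value over these genes, the threshold was 0.05, and the SE is the log2FC divided by the root of F. Fits were also run on simulated counts, drawn independently for each gene and without a difference between replicate sets. They therefore do not bear on the set differences or the covariation of the members. The alternatives were DESeq2 1.42.0, limma-voom (limma 3.58.1), library size scaling, no filter, blocks for replicate number or replicate set, either set alone, the compared groups alone, each replicate left out and an FDR under 0.01. The lists were refitted under the same settings for EPS 3h in control, a choice made after seeing the data. Libraries of the same replicate number, centred within groups, correlated above 0.1 in all 6 pairs for *Tug1* KD against control at EPS 0h and EPS 3h, for both times against Rest in control and for EPS 0h against Rest and EPS 3h against EPS 0h in *Tug1* KD, and in 5 of 6 pairs in the other comparisons. The centring was by group and not by replicate set, so a shared set alone could give such correlations. Pairing by number was thus not shown, and the labels do not pair wells. The smallest chi-square per degree of freedom between libraries of a group was 4.37, so none was a duplicate.

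The members, classes, lists and replicate sets were chosen with earlier results of these data known. Genes named are the cutting subunits, the members with the highest and lowest log2FC per class in each EPS comparison of control and each *Tug1* KD comparison, names below the filter, the regulators of the lists and their extremes. Other members past the threshold, *Psmf1*, *Psmc3*, *Psmd8*, *Psmd2*, *Vcp*, *Akirin2*, *Ube3c*, *Ubqln2*, *Tap1* and the genes given for covariation were named after their values were seen. *Paaf1* was not analysed here. One list gene and the count of its list are not reported here. Lengths and promoters came from GENCODE vM39 and RefSeq.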

Additional observations from a re-analysis of the deposited data

Results flagged for a closer look

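In 9 of 174 groups of 6 libraries 1 library stood further from the others than Dixon's 95% critical value allows, and chance alone flags about 1 group in 20. Replicate 3 of EPS 3h *Tug1* KD was the highest library for 4 core and cap genes, with *Psma2* at 235 RPM against 181 RPM in the nearest other library, *Psma6* at 206 RPM against 161 RPM in the nearest other library, *Psmb7* at 140.2 RPM against 107 RPM in the nearest other library and *Psmd12* at 218 RPM against 181 RPM in the nearest other library. Replicate 3 of EPS 3h control was the highest for *Psmb6*, at 260.1 RPM against 190.4 RPM in the nearest other library, and for *Psmd3*, at 294 RPM against 228 RPM in the nearest other library. Replicate 6 of EPS 0h *Tug1* KD was the highest for *Psmd3*, at 196 RPM against 177 RPM in the nearest other library, and replicate 3 of that group for the summed assembly chaperones, at 273 RPM against 244 RPM in the nearest other library. Replicate 4 of EPS 0h control was the lowest for *Psma6*, at 130.1 RPM against 144 RPM in the nearest other library.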

How the results depend on the processing

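The counts of members called, higher then lower, were 0 and 4 for EPS 0h control, 14 and 1 for EPS 3h control, 7 and 0 for EPS 3h against 0h control, 3 and 6 for EPS 0h *Tug1* KD, 5 and 2 for EPS 3h *Tug1* KD, 3 and 0 for EPS 3h against 0h *Tug1* KD, 1 and 2 for KD at Rest, 2 and 2 for KD at EPS 0h and 0 and 2 for KD at EPS 3h. Counts that differ from these by more than 1.5 times under another setting are given here, where KD stands for *Tug1* KD against control and EPS for a comparison with Rest. DESeq2 gave 10 higher for EPS 3h *Tug1* KD, 4 lower for KD at EPS 0h and 5 lower for KD at EPS 3h. Library size scaling gave 8 lower for EPS 0h control, 3 higher and 10 lower for EPS 3h control, 3 higher for EPS 3h against 0h control, 0 higher and 17 lower for EPS 0h *Tug1* KD, 1 higher and 12 lower for EPS 3h *Tug1* KD, 1 higher and 1 lower for EPS 3h against 0h *Tug1* KD, 1 higher and 7 lower for KD at EPS 0h and 6 lower for KD at EPS 3h. Without the filter there were 1 lower for EPS 0h control, 6 higher and 2 lower for EPS 3h control, 0 higher for EPS 3h against 0h control, 0 higher for EPS 0h *Tug1* KD, 0 higher and 8 lower for EPS 3h *Tug1* KD, 0 higher for EPS 3h against 0h *Tug1* KD, 0 higher and 0 lower for KD at Rest, 1 higher and 0 lower for KD at EPS 0h and 1 lower for KD at EPS 3h. The block for replicate number gave 1 higher for EPS 0h control, 3 lower for EPS 3h control, 13 higher for EPS 3h against 0h control, 6 higher and 13 lower for EPS 0h *Tug1* KD, 12 higher and 4 lower for EPS 3h *Tug1* KD, 3 higher and 5 lower for KD at Rest, 5 lower for KD at EPS 0h and 11 lower for KD at EPS 3h. The block for replicate set gave 1 higher for EPS 0h control, 3 lower for EPS 3h control, 12 higher for EPS 3h against 0h control, 6 higher and 13 lower for EPS 0h *Tug1* KD, 12 higher and 4 lower for EPS 3h *Tug1* KD, 3 higher for KD at Rest, 5 lower for KD at EPS 0h and 10 lower for KD at EPS 3h. Replicates 1 to 3 alone gave 8 higher for EPS 0h control, 0 lower for EPS 3h control, 13 higher for EPS 3h against 0h control, 5 higher and 16 lower for EPS 0h *Tug1* KD, 8 lower for EPS 3h *Tug1* KD, 0 higher for EPS 3h against 0h *Tug1* KD, 2 higher and 0 lower for KD at Rest and 0 higher and 0 lower for KD at EPS 0h. Replicates 4 to 6 alone gave 1 lower for EPS 0h control, 6 higher and 4 lower for EPS 3h control, 4 higher for EPS 3h against 0h control, 1 lower for EPS 0h *Tug1* KD, 11 higher and 1 lower for EPS 3h *Tug1* KD, 14 lower for KD at Rest, 1 lower for KD at EPS 0h and 0 lower for KD at EPS 3h. Fitting the compared groups alone gave 2 higher for EPS 3h against 0h control, 8 higher for EPS 3h *Tug1* KD, 0 higher for EPS 3h against 0h *Tug1* KD, 0 higher and 1 lower for KD at Rest, 1 higher for KD at EPS 0h and 0 lower for KD at EPS 3h. An FDR under 0.01 left 0 lower for EPS 0h control, 8 higher for EPS 3h control, 3 higher for EPS 3h against 0h control, 0 higher and 2 lower for EPS 0h *Tug1* KD, 3 higher and 1 lower for EPS 3h *Tug1* KD, 1 higher for EPS 3h against 0h *Tug1* KD, 0 higher and 0 lower for KD at Rest and 0 higher and 0 lower for KD at EPS 0h. With each replicate number left out of all groups in turn, the counts ran from 0 to 1 higher and 0 to 2 lower for EPS 0h control, 8 to 16 higher and 1 to 2 lower for EPS 3h control, 3 to 6 higher for EPS 3h against 0h control, 0 to 2 higher and 1 to 13 lower for EPS 0h *Tug1* KD, 3 to 5 higher and 1 to 5 lower for EPS 3h *Tug1* KD, 1 to 3 higher for EPS 3h against 0h *Tug1* KD, 0 to 1 higher and 0 to 2 lower for KD at Rest, 0 to 1 higher and 0 to 3 lower for KD at EPS 0h and 1 to 5 lower for KD at EPS 3h. The cause of these shifts was not tested. The shares of all genes called moved as well, for EPS 3h control to 19.1% higher and 39.5% lower under library size scaling. These counts alone are therefore no results about the members. Fits to the sets, the compared groups and the omissions also hold fewer libraries, and the part of this was not tested. No limma-voom count moved by this much, and no call of a single member reversed under any setting. At EPS 3h in control myotubes the calls lost were *Psmb7*, *Psmb2*, *Psmc6*, *Psme4* and *Psma2* without replicate 1, *Psmb7*, *Psmb2*, *Psmd7*, *Psmc6*, *Psme4* and *Psma2* without replicate 2, *Psmb7*, *Psmb2* and *Psmd7* without replicate 3, *Psme4* without replicate 4, *Psme4* without replicate 5. None was lost without replicate 6. Of the *Tug1* KD calls, those lost when a replicate number was left out were *Psmd10* at Rest without 1, 2, 3 and 4, *Psmd3* at Rest without 1, 4, 5 and 6, *Psmg1* at Rest without 4, 5 and 6, *Psmd10* at EPS 0h without 1, 2, 3, 4, 5 and 6, *Psmb4* at EPS 0h without 2, 4 and 5, *Psmd3* at EPS 0h without 1, 4 and 5, *Psme4* at EPS 0h without 2, 3, 4 and 5, *Psmc2* at EPS 3h without 2. In the other EPS comparisons they were, with the number left out in parentheses, *Psmd5* (1, 4, 5, 6), *Psme2* (1, 2, 3, 4, 5), *Psmd11* (1, 2, 6) and *Psmc1* (1, 2, 3) for EPS 0h control, *Psma5* (1, 2, 3, 4), *Psmd6* (1, 2, 3, 4, 5, 6), *Psmd12* (1, 2, 4, 6) and *Psma2* (1, 2, 3, 4) for EPS 3h against 0h control, *Psmd5* (1, 4, 5), *Psmd14* (1, 2, 3, 4, 5), *Psmd9* (1, 2, 3), *Psmb10* (1, 2, 3), *Psme2* (1), *Psme4* (1, 2, 3, 5), *Psmb6* (1, 2, 3, 5) and *Psmg1* (3, 4, 5, 6) for EPS 0h *Tug1* KD, *Psma7* (6), *Psme3ip1* (2, 3, 4), *Psmd12* (3, 6) and *Psmg1* (3, 4, 6) for EPS 3h *Tug1* KD, *Psmd8* (1, 3, 4, 6) and *Psma6* (1, 3, 4, 5) for EPS 3h against 0h *Tug1* KD. The block for replicate number changed no count beyond those given here and beside the results. It rests on a shared number alone in every comparison. With 17005079 to 24181167 counts per library, *Psmb8*, *Psmb9*, *Psmb11* and *Psma8* stayed too low to test.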
